A study of Homo sapiens with 6 samples.

Results

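The genes described are 7 chemokine receptors (CCR1, CCR2, CCR7, CXCR2, CXCR3, CXCR4 and CX3CR1) and the chemokine CCL5, found as the rows of the deposited table that carry these 8 symbols, 8 of the 32322 gene rows used. They were selected on the same compound 28 against DMSO values that are given here, so their differences are a description and carry no test. RNA was sequenced from cells titled MDA-MB-231, a human breast cancer line of the triple-negative class, labelled as wild type and grown in L-15 medium. There were 3 libraries after 500 nM of compound 28 for 4 h and 3 after DMSO, the solvent control, whose duration the labels leave out. According to the series title, compound 28 is a degrader of CDK9, the kinase that releases paused RNA polymerase II into elongation. The source and cell line labels count upwards by 1 over the samples, from MDA-MB-231 in the first to MDA-MB-236 in the last, and so differ from the titles. Nothing in the labels says that replicates came from separate cultures, so p-values reflect the spread of these libraries alone, and that spread may be technical.

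Chemokines are small secreted proteins that bind receptors with 7 membrane-spanning segments, coupled mainly to inhibitory G proteins, and direct the migration of leukocytes. CC and CXC chemokines are named for the spacing of their first cysteines, and CX3CR1 is the receptor of fractalkine, the CX3C chemokine. CCL5, also called RANTES, signals through receptors that include CCR1 and CCR3. Breast cancer cells are known to respond to chemokines through CXCR4, and CCL5 is known as a product of both leukocytes and tumour cells.

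The libraries held 37186728 to 54830987 reads in genes after DMSO and 28505897 to 34062330 after compound 28, so 1 read was worth 0.579 to 0.862 and 1.26 to 1.55 normalized counts. Rows of the read counter that name no gene took 30.4% to 32.8% of all reads after DMSO and 40.4% to 46.9% after compound 28. Of 30 symbols listed as markers of MDA-MB-231, 25 had a row and 6 had over 10 CPM (reads scaled to a fixed total of reads in genes) after DMSO, led by CD44, VIM and PLAU. The caveolar coat gene CAV1 had 0, 1 and 0 reads after DMSO and 0, 4 and 0 after compound 28. The receptor kinase gene MET had 0, 0 and 0 reads and then 1, 1 and 0, and the keratin gene KRT7 had 3, 0 and 0 and then 0, 3 and 1. CAV1, MET and KRT7 are named after their values were seen. Of 30 myeloid marker symbols, 29 had a row and 23 had over 10 CPM after DMSO, with AZU1, a neutrophil granule protein gene, at 1330 CPM, followed by LCP1 and LAPTM5. Low in that list after DMSO, and also named after their values were seen, were CD68 (12, 10 and 7 reads) and CD14 (26, 26 and 21 reads). Below 1 CPM in both groups were 10 of the 25 MDA-MB-231 rows and 1 of the 29 myeloid rows. The summed CPM of the myeloid list was 7558 to 8312 after DMSO and 7807 to 8075 after compound 28. That of the MDA-MB-231 list was 596 to 600 after DMSO and 278 to 314 after compound 28. That of the lymphoid list (21 of 25 symbols with a row, led by CD4, NKG7 and BLK) was 338 to 386 and 488 to 570. Most of this sum was CD4 alone, at a mean of 315.6 CPM after DMSO and 484.5 after compound 28. Of the 21 lymphoid rows, 11 were below 1 CPM in both groups. The libraries therefore lacked several defining transcripts of the labelled line and held transcripts of the myeloid list, and the part of this in the receptor values was not tested. In bulk RNA, fewer cells that carry a transcript and less of it per cell cannot be told apart.

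The 300 bases around the start of the 3 genes with the lowest log2 change among the 7 receptors selected are shown because CDK9 acts on RNA polymerase II paused near promoters. They run from 250 bases before the start to 50 after it, 5′ to 3′ on the strand of the gene, as RefSeq on GRCh38.p14 gives them. CX3CR1 and CXCR4 each have 3 promoter entries, and the entry whose start lies nearest the GENCODE start of the gene was used. Which start these cells use was not tested. CX3CR1 is at chr3:39281686-39281985 on the minus strand, CXCR4 at chr2:136118100-136118399 on the minus strand and CXCR2 at chr2:218125778-218126077 on the plus strand. Capitals mark any match to GGAAGT, the core of sites bound by ETS factors such as the myeloid factor PU.1, to CAGGAAG, a longer ETS form that can overlap it, or to the TATA box letters TATAAA, each on either strand.
CX3CR1: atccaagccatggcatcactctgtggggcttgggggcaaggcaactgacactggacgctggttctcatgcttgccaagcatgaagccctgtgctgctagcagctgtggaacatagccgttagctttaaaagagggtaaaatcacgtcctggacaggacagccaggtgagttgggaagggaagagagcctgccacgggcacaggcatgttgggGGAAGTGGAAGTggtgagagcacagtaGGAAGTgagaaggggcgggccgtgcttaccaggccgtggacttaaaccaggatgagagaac
CXCR4: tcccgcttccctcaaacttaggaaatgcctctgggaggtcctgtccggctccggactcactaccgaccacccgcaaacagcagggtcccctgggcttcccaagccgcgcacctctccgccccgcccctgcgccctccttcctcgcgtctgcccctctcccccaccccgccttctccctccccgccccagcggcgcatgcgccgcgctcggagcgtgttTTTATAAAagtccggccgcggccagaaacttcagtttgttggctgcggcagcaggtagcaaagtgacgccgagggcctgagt
CXCR2: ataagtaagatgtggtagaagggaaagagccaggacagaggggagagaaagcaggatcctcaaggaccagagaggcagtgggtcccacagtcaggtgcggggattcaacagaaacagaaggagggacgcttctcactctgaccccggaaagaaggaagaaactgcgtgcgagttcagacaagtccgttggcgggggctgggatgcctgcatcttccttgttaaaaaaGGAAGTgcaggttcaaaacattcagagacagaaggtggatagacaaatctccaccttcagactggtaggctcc
The CX3CR1 window held GGAAGT 3 times on its own strand, beginning at positions -38, -32 and -11 from the start. The CXCR4 window held TATAAA once on each strand, beginning at -32 and -30 and overlapping, and the CXCR2 window held GGAAGT once, at -23. Promoter windows were matched for 6 of the 8 genes. The CCR1 window (chr3:46208264-46208563, minus strand) held GGAAGT at -201 and, on the other strand, at -64, and CAGGAAG at -203 and -77, the first overlapping a GGAAGT. The CCR2 window (chr3:46353861-46354160, plus strand) held neither, and its only match was to the AP-1 letters TGANTCA, at -212. The CXCR3 window (chrX:71618462-71618761, minus strand) held GGAAGT once on the other strand, at -29. Among 35116 RefSeq promoter windows of the same length, 22.8% held GGAAGT, 12.7% CAGGAAG, 11.5% TATAAA and 7.7% TGANTCA on either strand. The GC box letters GGGCGG, in 45.0% of all windows, were matched in the windows of CXCR4 (3 times) and CX3CR1 (once). The E-box CACGTG (7.3% of windows) and a strict and a loose form of the κB motif (1.9% and 7.6%) were matched in none of the 6. A match is a description of letters and not a measured binding site.

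Compound 28 was compared with DMSO to ask how transcripts of the receptors and of the ligand differ once cells have been exposed to the degrader for 4 h. Transcripts of CCR1, CCR2, CXCR2, CXCR4 and CX3CR1 were lower in every compound 28 library than in any DMSO library, by 6.54-fold to 36.5-fold. CCL5 was higher in every compound 28 library, by 2.43-fold with the authors' size factors, but lower with libraries scaled on mitochondrially encoded mRNAs. CXCR3 and CCR7 overlapped between the groups at low read numbers. Folds and changes are on the log2(normalized count + 1) scale, compound 28 against DMSO. Of 18278 genes tested, 38.9% lay below DMSO in every compound 28 library and 36.9% lay above, and nothing is read from the members' count of 5 below and 1 above since the choice of members used it. By limma with Benjamini-Hochberg adjustment, 6813 genes (37.3%) were called lower and 6487 (35.5%) higher. Changes of -2 or lower were seen in 9.8% of the tested genes, and 38 genes (0.21%) had a lower value than CX3CR1.

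**Figure D1:**
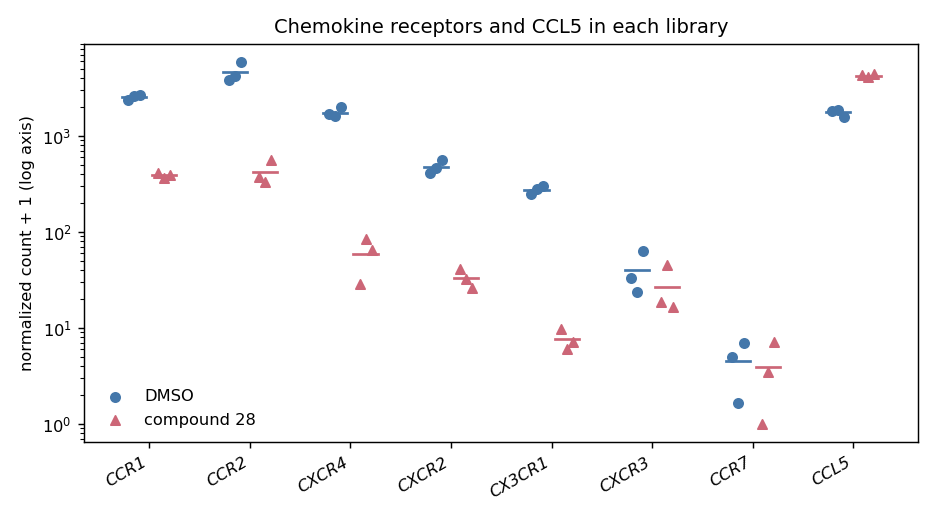
Normalized count + 1 (log axis) of the 7 chemokine receptors and CCL5 in each of the 3 DMSO (circles) and 3 compound 28 (triangles) libraries, with a bar at each group's mean. CCR1, CCR2, CXCR4, CXCR2 and CX3CR1 lie lower after compound 28 with no overlap, CXCR3 and CCR7 overlap, and CCL5 lies higher with the authors' size factors, a direction that turns to -0.18 (log2) when libraries are scaled on mitochondrially encoded mRNAs.

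CCR1, a receptor of CCL5 and CCL3 on monocytes and other leukocytes, stood at 2383, 2599 and 2647 normalized counts in the DMSO libraries and at 411, 364 and 390 after compound 28. The libraries of each group lay close together and the groups did not overlap. The mean went from 2543 ± 141 to 388 ± 23.9 (SD, n = 3 each), a log2 change of -2.71 ± 0.10 (SE) or 6.54-fold lower, with 15.3% of the mean left. It was the smallest change of the 5 receptors that were lower, and 902 tested genes had a lower one.

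CCR2, the receptor of the monocyte attractant CCL2, stood at 3818, 4204 and 5851 normalized counts after DMSO and at 372, 330 and 560 after compound 28. DMSO replicate 3 and compound 28 replicate 3 were the highest of their groups, and the groups were far apart. The mean went from 4624 ± 1080 to 420 ± 123 (SD, n = 3), a log2 change of -3.47 ± 0.20 (SE), 11.1-fold lower, with 9.09% left.

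CXCR4, the receptor of CXCL12 that retains blood progenitors in the marrow and serves tumour cell migration, stood at 1670, 1590 and 1982 normalized counts after DMSO and at 27.9, 83.0 and 63.7 after compound 28. These came from 2884, 2455 and 2300 reads and from 19, 66 and 41 reads. All compound 28 libraries were far below all DMSO libraries, and replicate 1 of compound 28 was the lowest. The mean went from 1747 ± 207 to 58.2 ± 28.0 (SD, n = 3), a log2 change of -5.01 ± 0.32 (SE), 32.2-fold lower, with 3.33% left. Leaving out one library at a time gave changes of -5.33 to -4.56.

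CXCR2, a receptor of CXCL8 and related neutrophil attractants, stood at 409, 466 and 554 normalized counts after DMSO and at 39.7, 31.5 and 24.9 after compound 28, the latter from 27, 25 and 16 reads. The groups did not overlap. The mean went from 477 ± 73.0 to 32.0 ± 7.41 (SD, n = 3), a log2 change of -3.87 ± 0.23 (SE), 14.6-fold lower, with 6.71% left. A transcript of CXCR2 shares a stretch of 279 bases at 95.7% identity with CXCR1, which is not analysed here, so reads from that stretch are uncertain.

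CX3CR1, the fractalkine receptor of patrolling monocytes and microglia, stood at 248, 280 and 297 normalized counts after DMSO and at 8.81, 5.03 and 6.22 after compound 28. The compound 28 values rest on 6, 4 and 4 reads, against 429, 432 and 344 after DMSO. All 3 compound 28 libraries were near 0 and far below the DMSO libraries. The mean went from 275 ± 24.4 to 6.69 ± 1.93 (SD, n = 3), a log2 change of -5.19 ± 0.29 (SE) or 36.5-fold lower, and with 5 added in place of 1 the change was -4.59. The ratio of summed reads, scaled for depth by the authors' factors, was 0.0243 with an exact 95% counting interval of 0.0132 to 0.0409, which covers counting error only.

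CXCR3, the receptor of the interferon-induced chemokines CXCL9, CXCL10 and CXCL11 on activated lymphocytes, had 55, 35 and 73 reads after DMSO and 12, 35 and 10 after compound 28. In normalized counts these were 31.8, 22.7 and 62.9 against 17.6, 44.02 and 15.5. The groups overlapped, since compound 28 replicate 2 lay above DMSO replicates 1 and 2. The mean was 39.1 ± 21.1 and 25.7 ± 15.9 (SD, n = 3), and the log2 change was -0.61 ± 0.49 (SE). Leaving out one library at a time moved it between -1.07 and -0.21. The ratio of reads scaled for depth was 0.731, with an exact 95% counting interval of 0.531 to 0.995, which leaves out the spread between libraries.

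CCR7, which guides lymphocytes and dendritic cells to lymph nodes, had 7, 1 and 7 reads after DMSO and 0, 2 and 4 after compound 28. That is 15 against 6 reads in all, or 4.05, 0.65 and 6.03 against 0, 2.52 and 6.22 normalized counts, and the groups overlapped. It was below the filter on low values, so 7 of the 8 genes were in the fit. The ratio of reads scaled for depth was 0.837, with an exact 95% counting interval of 0.266 to 2.28. The difference of its group means on the log2(value + 1) scale was -0.40, and it went from -1.05 without compound 28 replicate 3 to 0.38 without compound 28 replicate 1, so its direction rests on single libraries. The 0 reads of compound 28 replicate 1 allow up to 3 reads, or 4.41 normalized counts.

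CCL5 stood at 1807, 1856 and 1586 normalized counts after DMSO and at 4276, 4099 and 4346 after compound 28. All compound 28 libraries lay above all DMSO libraries, and within each group the values were close. The mean went from 1750 ± 144 to 4240 ± 127 (SD, n = 3), a log2 change of 1.28 ± 0.09 (SE), 2.43-fold higher, which scaling on mitochondrially encoded mRNAs turned to -0.18. Among tested genes 17.1% had a higher log2 change. The reads themselves were 3122, 2866 and 1840 after DMSO and 2911, 3259 and 2796 after compound 28, or 55.3 and 97.8 CPM on average. CCL5 transcripts share stretches of at least 50 bases at 95% identity or more with 17 other genes, the longest of 309 bases, and the treatment of such reads in the counting is not given here. In the authors' deposited table the log2 fold changes are -4.90 for CXCR4, -5.38 for CX3CR1, -3.89 for CXCR2, -3.46 for CCR2, -2.71 for CCR1 and 1.28 for CCL5. In the authors' deposited table they are also -0.58 for CXCR3 and -0.30 for CCR7.

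Reads of the 7 receptors together came to 306 ± 44.3 CPM after DMSO and 21.5 ± 2.22 CPM after compound 28 (SD, n = 3). CCL5 took 17.4%, 16.8% and 12.2% of the reads of the 8 genes in the DMSO libraries and 83.0%, 82.7% and 80.3% in the compound 28 libraries. This share does not depend on the scaling of a library. The 8 genes went from mostly receptor reads in every DMSO library to mostly CCL5 reads in every compound 28 library. The members were chosen with these values known, so this change of share is a description and supports nothing further.

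Per kilobase of exon, CCR2 had the highest mean level after DMSO, at 1239 ± 289 normalized counts per kb, followed by CCL5 at 1157 ± 95.2, CCR1 at 931 ± 51.5 and CXCR4 at 786 ± 93.3 (SD, n = 3). CCR2 and CCL5 overlapped, and so did CCR1 and CXCR4, while CCL5 and CCR1 did not. CXCR2 at 148 ± 22.6, CX3CR1 at 75.2 ± 6.68, CXCR3 at 21.0 ± 11.3 and CCR7 at 1.43 ± 1.09 followed, with no overlap between neighbours in this order. After compound 28 CCL5 was first at 2804 ± 84.1 normalized counts per kb, ahead of CCR1 at 142 ± 8.77 and CCR2 at 113 ± 32.8, which overlapped. CXCR4 at 26.2 ± 12.6, CXCR3 at 13.8 ± 8.50 and CXCR2 at 9.90 ± 2.29 overlapped from neighbour to neighbour. CX3CR1 at 1.83 ± 0.53 and CCR7 at 1.16 ± 1.25 were last and overlapped each other.

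The scaling of the libraries shifts all changes alike. The median change of all tested genes was -0.03 with the authors' factors, 0.16 with upper-quartile factors, -0.48 with library sizes, -1.13 with ribosomal protein mRNAs and -1.47 with the 13 mitochondrially encoded mRNAs. All 13 of the latter were called higher after compound 28 with the authors' factors, from a summed 31530 to 37780 CPM to a range of 65370 to 73090 CPM. The log2 change of CCL5 was 1.48, 0.83, 0.16 and -0.18 under upper-quartile factors, library sizes, ribosomal protein mRNAs and mitochondrially encoded mRNAs. Relative to the median of all tested genes CCL5 was higher by 1.31 (log2) with the authors' factors. CCR1, CCR2, CXCR2, CXCR4 and CX3CR1 were lower under all 6 scalings. CXCR3 was between -0.42 and -2.01.

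**Figure D2:**
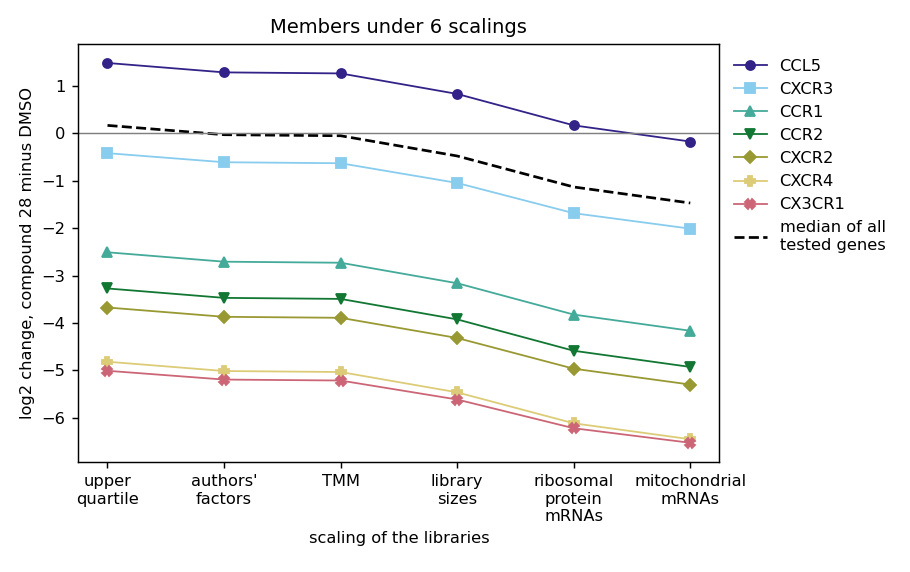
Log2 change, compound 28 minus DMSO, of the 7 genes in the fit and the median of all tested genes (dashed) under 6 ways to scale the libraries. All lines shift together, the 5 receptors CCR1, CCR2, CXCR2, CXCR4 and CX3CR1 stay below 0 throughout, and CCL5 goes from 1.48 with upper-quartile factors to -0.18 with mitochondrially encoded mRNAs.

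Among the other chemokine receptors, 15 of 22 listed symbols had a row, 7 passed the filter on low values, 3 fell and 0 rose by limma with Benjamini-Hochberg adjustment over all genes, beside the 37.3% and 35.5% of all tested genes. The median log2 change of these 7 was -0.22, and the summed level of the list was 60.9 to 67.7 CPM after DMSO and 19.5 to 20.6 CPM after compound 28. At an unadjusted p under 0.05, limma and edgeR each had 1 gene higher, PITPNM3, a membrane protein reported to bind CCL18, and DESeq2 called it after adjustment. Every compound 28 library lay above every DMSO library for 2 of the 7 and below for 4, beside 36.9% and 38.9% of all tested genes. CCR10, named after its values were seen, stood at 16.8, 11.7 and 3.45 and then at 19.1, 27.7 and 18.7 normalized counts. These came from 4 to 29 reads, and its log2 change of 1.17 was not called (adjusted p = 0.069, limma). GPR35, a receptor once proposed to bind CXCL17, was the most abundant and fell from 1616 ± 94.6 to 630 ± 35.3 normalized counts (SD, n = 3), a log2 change of -1.36 (adjusted p = 8.5e-07, limma). CCRL2, a receptor-like protein that binds chemerin, fell from 142, 152 and 147 to 17.6, 5.03 and 3.11 normalized counts (log2 change -4.26, adjusted p = 2.3e-05, limma), the latter from 12, 4 and 2 reads. Without compound 28 replicate 1 the change was -4.90, and with a pseudocount of 5 it was -3.64. CCRL2 passed the filter only through the DMSO libraries, where it was higher. Its ratio of reads scaled for depth was 0.0577, with an exact 95% counting interval of 0.0340 to 0.0920.

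The scavenging receptor ACKR2 and CCR3, a receptor of CCL5, are named after their values were seen. ACKR2 fell from 72.3 to 22.7 normalized counts (log2 change -1.66, adjusted p = 6.4e-04, limma). CCR3, the eotaxin receptor of eosinophils, stood at 138, 128 and 122 and at 98.4, 115 and 120 normalized counts. Its groups did not overlap by a narrow margin, and its log2 change of -0.22 was not called with the authors' factors (adjusted p = 0.32, limma). With library sizes it was -0.67 and called (adjusted p = 0.0092, limma). It was also called lower with ribosomal protein mRNA (-1.33, adjusted p = 1.2e-04, limma) and mitochondrial mRNA scaling (-1.67, adjusted p = 1.4e-05, limma).

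CCR1, CCR2, CCR3 and CCRL2 lie in a cluster on chromosome 3, in the order CCR3, CCR1, CCR2 and CCRL2 in GENCODE. CCR3 and CCR1 overlap on opposite strands, and since the strand setting of the counting is not given in the sources used here, their reads may not be fully told apart. Within a library, where scaling cancels apart from the added 1, the log2 difference of CCR3 from CCR1 went from -4.29 ± 0.17 after DMSO to -1.80 ± 0.22 after compound 28 (SD, n = 3), and that from CCR2 from -5.13 ± 0.41 to -1.88 ± 0.35. These pairs were chosen after their values were seen, so no p-value is given for them. Before CCR3 in this order, FYCO1, an adaptor of autophagosome transport, had a log2 change of -0.45 (adjusted p = 0.012, limma), and the call was lost with upper-quartile factors (adjusted p = 0.088, limma) and without compound 28 replicate 2 (adjusted p = 0.055, limma). CXCR6, the CXCL16 receptor gene in this stretch, had 15, 17 and 12 reads after DMSO and 1, 1 and 0 after compound 28 and was below the filter. Its ratio of reads scaled for depth was 0.0951, with an exact 95% counting interval of 0.0112 to 0.364.

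**Figure D3:**
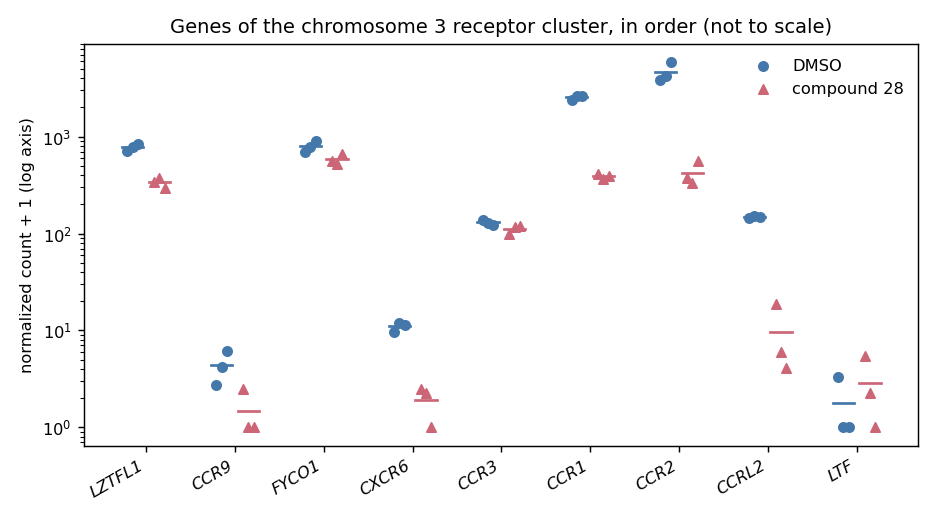
Normalized count + 1 (log axis) of 9 genes of the chromosome 3 receptor cluster in GENCODE order, with 3 DMSO (circles) and 3 compound 28 (triangles) libraries and bars at the means. CCR1, CCR2 and CCRL2 lie far lower after compound 28, while CCR3, beside CCR1, goes from 129 to 111 normalized counts.

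Around the other members, ARPC2, an actin nucleation subunit gene downstream of CXCR2, rose from 17970 to 25040 normalized counts (log2 change 0.48, adjusted p = 5.2e-04, limma), a direction that turned with mitochondrial mRNA (-0.98) and ribosomal protein mRNA scaling (-0.635). RUFY4, upstream of CXCR2, had a log2 change of -0.02 (adjusted p = 0.96, limma). GCNA, downstream of CXCR3 on the opposite strand, rose from 224 ± 37.6 to 1918 ± 356 normalized counts (SD, n = 3), a log2 change of 3.09 (adjusted p = 1.5e-07, limma). AC098613.1, downstream of CCR2 on the opposite strand, fell with a log2 change of -2.01 (adjusted p = 2.1e-04, limma). SMARCE1, a chromatin remodelling subunit gene upstream of CCR7, changed by -0.06 and AC015849.5 upstream of CCL5 by -0.05 on the log2 scale (adjusted p = 0.59 and 0.92, limma). RUFY4, SMARCE1 and AC015849.5 were called lower with mitochondrial and ribosomal protein mRNA scaling. FYCO1 and AC098613.1 thus fell beside the lower CCR1 and CCR2, while ARPC2 rose beside the lower CXCR2 with the authors' factors. CCR3, which overlaps CCR1, and RUFY4, on the other side of CXCR2, were not called with those factors. CXCR3 and CCR7 had no clear direction to compare. Below 1 CPM in both groups, HEATR9, downstream of CCL5, was called higher with the authors' factors (log2 change 1.625, adjusted p = 0.0077, limma). AC004585.1, downstream of CCR7, was called lower (-3.85, adjusted p = 1.5e-04, limma). HNRNPKP2, a pseudogene upstream of the lower CXCR4 and also below 1 CPM, was not called (0.71, adjusted p = 0.43, limma).

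Of the other chemokines, 25 of 48 listed symbols had a row and 7 passed the filter. By limma with the authors' factors 5 of the 7 rose and 2 fell, beside 35.5% higher and 37.3% lower among all tested genes. The median log2 change of the 7 was 1.21. CCL2, CXCL8, CCL17 and CCL25 passed the filter only through the group in which they were higher. Their calls, and the counts and median that include them, are thus a description and support nothing further. With mitochondrially encoded or ribosomal protein mRNAs as the scale, 3 were called higher, beside 9.9% and 12.2% of all tested genes. The summed level of the list was 16.4 to 21.8 CPM after DMSO and 18.2 to 20.9 CPM after compound 28, well below CCL5 alone. CCL2, the ligand of CCR2, fell from 158, 167 and 210 reads to 6, 0 and 0 (adjusted p = 6.7e-05, limma). Its ratio of reads scaled for depth was 0.0235, with an exact 95% counting interval of 0.00857 to 0.0514. CXCL8, the ligand of CXCR2, fell from 55, 98 and 82 reads to 4, 0 and 0 (adjusted p = 1.6e-04, limma), a ratio of 0.0356 with an interval of 0.00962 to 0.0924. The fitted changes of these chemokines depend on the value added before the log and on 1 library. For CCL2 it was -5.84, or -4.17 with a pseudocount of 5 and -6.94 without compound 28 replicate 1, and for CXCL8 it was -4.81, -3.15 and -5.74. Both ligands were thus near or at 0 reads in all 3 compound 28 libraries, the libraries in which CCR2 and CXCR2 were lower.

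CXCL16, the ligand of CXCR6, rose from 13.9, 19.4 and 22.4 to 112, 89.3 and 74.6 normalized counts (log2 change 2.25, adjusted p = 7.4e-05, limma). CCL23, a ligand of CCR1 and the most abundant of the list, went from 302 ± 21.2 to 506 ± 52.1 normalized counts (SD, n = 3), a log2 change of 0.74 (adjusted p = 5.3e-04, limma), a rise that turned to -0.71 with mitochondrial mRNA and -0.37 with ribosomal protein mRNA scaling. CCL24, a ligand of CCR3, CCL17 and CCL25 were the other 3 that rose and are named after their values were seen. CCL24 had a log2 change of 1.21 (adjusted p = 2.3e-03, limma), or -0.23 with mitochondrial mRNA scaling. CCL17 had 1, 0 and 1 reads after DMSO and 24, 20 and 17 after compound 28, a ratio of 63.8 scaled for depth with an exact 95% counting interval of 16.9 to 539. CCL25 had 0, 1 and 0 reads and then 21, 23 and 23, a ratio of 140 with an interval of 24.3 to 5616.

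**Figure D4:**
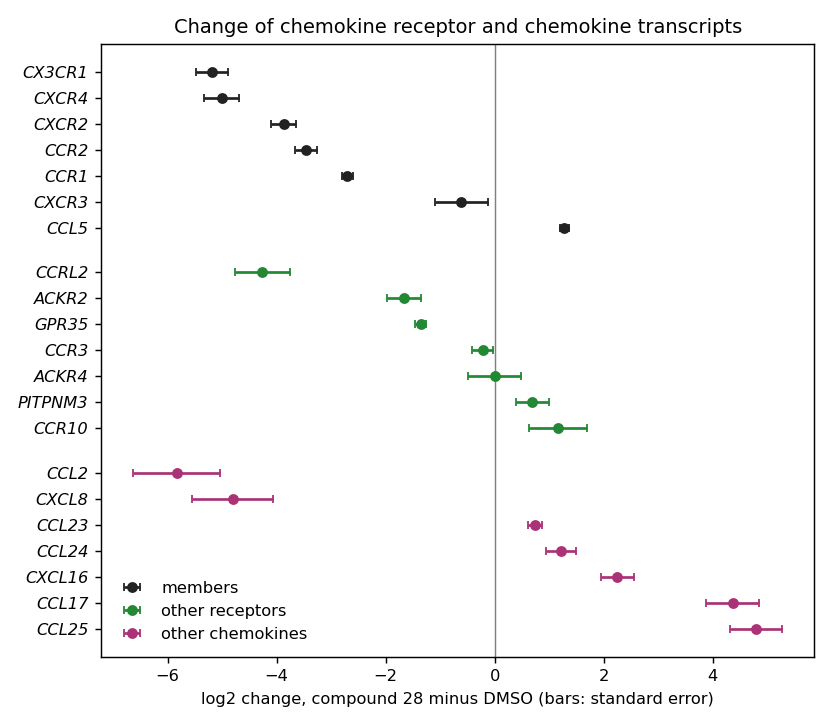
Log2 change, compound 28 minus DMSO, with its standard error, of the members in the fit (black), other chemokine receptors (green) and other chemokines (magenta), with the authors' size factors. CX3CR1 at -5.19 and CXCR4 at -5.01 are the lowest receptors plotted and CCL2 at -5.84 the lowest chemokine (-4.17 with a pseudocount of 5, -6.94 without compound 28 replicate 1), CCL25 at 4.79 is the highest, and CCL5, CCL23 and CCL24 turn below 0 with scaling on mitochondrially encoded mRNAs (CCL23 also with ribosomal protein mRNAs).

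Of 68 listed genes of receptor signalling (G proteins, their regulators, receptor kinases, arrestins and migration effectors), 66 had a row and 60 were tested. With the authors' factors 22 rose and 19 fell by limma, and the median log2 change was 0.10, shares near the 35.5% and 37.3% of all tested genes. With mitochondrially encoded mRNAs as the scale 0 were higher and 55 lower, beside 9.9% and 76.0% of all tested genes. GNAQ, a G protein alpha subunit that activates phospholipase C, rose from 5046 ± 843 to 16970 ± 1051 normalized counts (SD, n = 3), a log2 change of 1.76 (adjusted p = 4.8e-07, limma). RGS16, which shortens G protein signalling, fell from 242, 297 and 308 to 8.81, 13.8 and 4.66 normalized counts (log2 change -4.91, adjusted p = 8.7e-07, limma). CFL1, the actin-severing cofilin and the most abundant, changed by 0.88 (adjusted p = 5.6e-05, limma), or by -0.57 and -0.23 with mitochondrial and ribosomal protein mRNA scaling. Further genes named after their values were seen were the regulators RGS18 (-3.49), RGS19 (-2.24) and RGS14 (-1.99), the inhibitory alpha subunit GNAI1 (-3.65) and the kinase PIK3CG (-2.48), all of which fell. The inhibitory alpha subunit GNAI2 (0.90) and the receptor kinase GRK2 (1.05) rose, though with mitochondrial mRNA scaling they stood at -0.55 and -0.41 and with ribosomal protein mRNA scaling at -0.21 and -0.066. The receptor kinase GRK3 (1.66) and the ubiquitin ligase ITCH (1.69), which directs CXCR4 to degradation, rose and GRK6 (-1.14) fell. The calls of GNAQ, GRK3 and ITCH were lost with mitochondrial mRNA scaling. The arrestins ARRB1 (log2 change 0.27, adjusted p = 0.18) and ARRB2 (0.10, adjusted p = 0.29) were not called by limma with the authors' factors. Both were called higher with upper-quartile factors (0.47 and 0.30) and lower with mitochondrial mRNA scaling (-1.19 and -1.36). ARRB1 was also called higher without DMSO replicate 3 (adjusted p = 0.011, limma) and with the replicate block (adjusted p = 0.025, limma), and ARRB2 lower with library sizes (-0.36).

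Of 24 listed transcription factors linked to CCL5 transcription, 23 were tested, 2 rose and 18 fell by limma with the authors' factors, and the median log2 change was -0.60, beside 35.5% higher, 37.3% lower and a median of -0.03 for all tested genes. RUNX1, a factor of blood cell development and the most abundant of the list, rose from 12060 ± 1513 to 30000 ± 1780 normalized counts (SD, n = 3), a log2 change of 1.32 (adjusted p = 1.5e-06, limma), but stood at -0.14 with mitochondrial mRNA scaling. CEBPD, an inducible leucine zipper factor, fell from 2453 ± 186 to 207 ± 51.9 normalized counts (SD, n = 3), a log2 change of -3.59 (adjusted p = 7.3e-08, limma). Among genes named after their values were seen, NFKB1 (-2.35), NFKB2 (-1.94), RELA (-1.22) and RELB (-0.96) of the NF-κB family fell. FOS (-3.08), CEBPB (-2.64), SPI1 (-0.74), which encodes PU.1, and IRF8 (-0.60) fell as well. KLF13, known as a late activator of CCL5 in T cells, rose by 0.84 (log2), or stood at -0.62 and -0.28 with mitochondrial and ribosomal protein mRNA scaling. REL, IRF7 and STAT2 were not called.

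**Figure D5:**
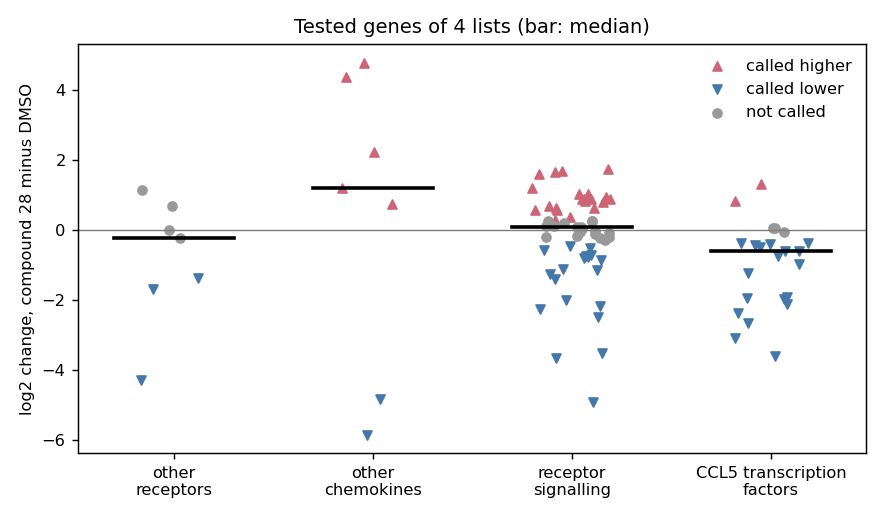
Log2 change, compound 28 minus DMSO, of each tested gene of 4 lists with the authors' size factors, as called higher (red), called lower (blue) or not called (grey) by limma, with bars at the medians. The medians were -0.22, 1.21, 0.10 and -0.60 from left to right, and with scaling on mitochondrially encoded mRNAs 3, 0 and 0 genes of the last 3 lists were called higher. Among the other chemokines, CCL2, CXCL8, CCL17 and CCL25 passed the filter on low values only through the group in which they were higher.

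The genes most like CCL5 over the 6 libraries, by the root mean square difference of log2(normalized count + 1) centred on each gene's mean and among 8454 protein-coding genes of at least 10 CPM, were ALOX5AP (0.02), the partner of 5-lipoxygenase in leukotriene synthesis, the exocyst subunit EXOC3 (0.05) and TUSC2 (0.05). ALOX5AP went from 1767 ± 137 to 4245 ± 79.2 normalized counts (SD, n = 3). The genes most like CCR2 were IL16 (0.13), a chemoattractant for CD4+ cells, CRYBG1 (0.16) and the triglyceride synthesis enzyme DGAT2 (0.20). IL16 went from 744 ± 101 to 68.8 ± 26.8 normalized counts (SD, n = 3). Likeness here rests mainly on a like log2 change, such as 1.27 for ALOX5AP beside 1.28 for CCL5. It uses the values on which the members were chosen, and shared regulation was not tested.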

How the data were processed

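RNA was measured in 6 libraries, 3 per group, grouped by their titles. The submitters' processing notes name HTSeq, HISAT2, fastp, SAMtools and StringTie and the builds GRCh37 and hg19, and the sources used here do not give versions, or whether strand was used in counting. The authors deposited a normalized count signal per gene and library; its values are read counts over 1 size factor for each library. Reads could be recovered, since 100% of values were whole within 0.01 read. The authors also deposited log2 fold changes, a test statistic (a score) and p-values, of which only the log2 fold changes are printed. The 5 summary rows of the counter entered neither the totals nor the tests. Another 8 rows with names like dates were kept and not named.

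The test was limma-trend (limma 3.58.1, R 4.3.3) on log2(normalized count + 1), after filtering low genes with filterByExpr of edgeR on those reads, with Benjamini-Hochberg adjustment over 18278 genes and a threshold of 0.05. The design written down was for this unit or for counts; as count tests on the recovered reads, edgeR 4.0.16 (quasi-likelihood) called 6385 genes higher and 6893 lower, and DESeq2 1.42.0 called 6667 and 6464. Levels per kb used GENCODE release 29 exon lengths, matched for 95.8% of symbols. Other alternatives changed the pseudocount, the filter, the scaling, the replicate block and each library. The fit was tested on simulated data in which few genes changed, balanced in direction, so that test does not bear on the scaling. Intervals and floors cover counting error only.

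The members and lists were chosen with earlier results of these data known, and 1 further receptor gene is not reported here. The rule for named genes took the 8 members, and from each list its most abundant gene and the called genes of largest rise and fall that reach 1 CPM. It also took the 3 most abundant genes of each cell marker list, neighbours at 1 CPM or more, and the 3 genes most like each of the 2 members of highest mean.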

Additional observations from a re-analysis of the deposited data

How the results depend on the processing

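CCR1, CCR2, CXCR2, CXCR4 and CX3CR1 kept their direction under all alternatives run, and leaving out 1 library moved the fold of none of the 7 members in the fit by more than 1.5 times. For CCR7, below the filter, it did, from -1.05 to 0.38 (log2) around -0.40. The scaling decided more. Genes called higher came to 4218 with library sizes, 1810 with mitochondrially encoded mRNAs and 2234 with ribosomal protein mRNAs, and genes called lower to 13885 and 12429 with the last 2. With mitochondrial mRNA scaling the log2 change was -0.18 for CCL5, -0.71 for CCL23, -0.23 for CCL24, -0.57 for CFL1, -0.14 for RUNX1, -0.62 for KLF13, -0.98 for ARPC2, -0.55 for GNAI2, -0.41 for GRK2, -0.26 for DOCK2, -1.19 for ARRB1 and -1.36 for ARRB2, all turned. With ribosomal protein mRNA scaling it was -0.37 for CCL23, -0.23 for CFL1, -0.28 for KLF13, -0.635 for ARPC2, -0.21 for GNAI2, -0.066 for GRK2, -0.85 for ARRB1 and -1.02 for ARRB2, and with library sizes -0.36 for ARRB2. Of these, CCL24, RUNX1 and DOCK2 were not called with mitochondrial mRNA scaling (adjusted p = 0.46, 0.39 and 0.26, limma). With ribosomal protein mRNA scaling CCL23, CFL1, KLF13, GNAI2 and GRK2 were not called (adjusted p = 0.08, 0.14, 0.17, 0.14 and 0.66, limma). The turns follow from the shift of all genes.

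For other receptors, genes called higher were 1 with a pseudocount of 5, 2 with upper-quartile factors, 1 with DESeq2 and 0 to 1 with a library left out, and genes called lower were 7 with no filter and 6 with mitochondrial mRNA scaling. For other chemokines, genes called higher were 8 with no filter and 3 with each of the last 2 scalings, and genes called lower were 4 with no filter. Signalling genes called higher were 0 with mitochondrial and 4 with ribosomal protein mRNAs, and those called lower 34 with library sizes, 55 and 46. CCL5 transcription factors called higher were 0 with either.

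Same-numbered libraries of the groups correlated in their deviations by -0.02, 0.04 and 0.07, so the numbers do not pair them; the replicate block gave 6511 genes higher and 6769 lower. Reads limit CCR7, CXCR3 and the compound 28 level of CX3CR1. The order of levels without division by length put CCR1 above CCL5 after DMSO.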
